A study of Mus musculus with 18 samples.

Results

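The regions described here are the most crowded stretches of a list of accessible chromatin intervals of mouse cortical neurons, 7721 intervals in 233 windows of 100 kb. Chromosomes 1 to 19 were tiled from position 1 into 24614 windows of 100 kb, and a window was taken as dense if the midpoints of 30 or more intervals lay in it. Dense windows were 0.947% of the tiled windows and held 3.71% of the 208005 intervals on these chromosomes, or 3.65% of the 211682 intervals of the whole list. The windows were thus chosen by their interval count, and that count, the spacing of intervals and the bases covered are given below as descriptions of what was selected.

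The assay was ATAC-seq, where a transposase, Tn5, inserts adapters into open DNA. The cells were primary cortical neurons from CD1 mouse embryos of embryonic day 14.5 to 15. The 18 samples fall into 4 groups by the pair of lentiviral short hairpin RNAs (shRNAs) they received: 5 with shOpa1 and shAtf4, 3 with shControl and shAtf4, 5 with shOpa1 and shScrambled, and 5 with shControl and shScrambled. All groups received cytosine arabinoside at 2 µM, the lentivirus on day 6, and were taken on day 11. Opa1 fuses the inner membrane of mitochondria and shapes its cristae, and Atf4 carries the integrated stress response to the genes it controls. The study addresses the part of Atf4 in accessibility when mitochondria are stressed, but the only file analysed is 1 consensus list without values for a sample or group. No interval can be assigned to a knockdown, and how many cultures showed it, and at what depth, is unknown.

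Open chromatin marks promoters, enhancers and other sites where proteins displace nucleosomes. Promoters are mostly wide, stable open sites, while enhancers are narrower, are spread through introns and the DNA between genes, and differ more between cell types. Many genes that give neurons their identity, such as those for transcription factors and synaptic proteins, are known to lie among many such sites. Repeated sequence is a known difficulty of such maps, because reads from many copies can be placed at a single one.

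The sequences that show what lies in these windows come first. The promoters below are 300 bases each, 250 before and 50 after a start given by RefSeq on GRCm38.p6 (mm10), and they are written on the gene's strand. Capitals mark CG dinucleotides. They were chosen after their values were seen, to set a start with an ordinary number of CG beside a CG-poor one. They also show a neuronal and a stress gene. The median over promoters in dense windows was 17 CG. Pkd1, which encodes the membrane protein polycystin-1, has 18 CG and 5 copies of the GC box GGGCGG, counted on both strands, in this window (chr17:24549700-24549999, plus strand), under an interval of 1392 bp. The listed start inside Kif1a (chr1:93082431-93082730, minus strand) has 1 CG and no interval over it, although it lies in the most crowded window of all. Neurod2, a transcription factor of maturing cortical neurons, has 16 CG (chr11:98329596-98329895, minus strand) under an interval of 1348 bp. Ddit3, which encodes the stress factor CHOP and is a known target of Atf4, has 22 CG (chr10:127290543-127290842, plus strand) under an interval of 1621 bp.
Pkd1: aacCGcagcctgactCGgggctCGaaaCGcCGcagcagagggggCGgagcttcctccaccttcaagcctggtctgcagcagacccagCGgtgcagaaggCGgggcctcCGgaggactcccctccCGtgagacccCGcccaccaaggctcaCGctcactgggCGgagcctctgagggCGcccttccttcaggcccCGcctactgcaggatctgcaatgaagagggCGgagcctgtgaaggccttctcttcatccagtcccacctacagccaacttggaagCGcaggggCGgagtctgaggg
Kif1a inner start: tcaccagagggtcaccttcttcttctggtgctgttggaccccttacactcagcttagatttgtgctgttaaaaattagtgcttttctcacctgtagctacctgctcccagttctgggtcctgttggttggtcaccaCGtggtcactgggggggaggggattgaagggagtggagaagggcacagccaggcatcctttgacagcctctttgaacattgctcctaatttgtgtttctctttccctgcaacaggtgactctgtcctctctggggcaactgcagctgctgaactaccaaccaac
Neurod2: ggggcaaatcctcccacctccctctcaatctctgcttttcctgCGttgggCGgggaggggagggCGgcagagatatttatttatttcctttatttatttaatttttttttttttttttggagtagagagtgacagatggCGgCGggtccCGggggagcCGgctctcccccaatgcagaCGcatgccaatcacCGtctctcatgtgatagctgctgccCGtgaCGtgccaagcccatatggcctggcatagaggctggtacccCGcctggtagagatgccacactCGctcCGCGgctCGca
Ddit3: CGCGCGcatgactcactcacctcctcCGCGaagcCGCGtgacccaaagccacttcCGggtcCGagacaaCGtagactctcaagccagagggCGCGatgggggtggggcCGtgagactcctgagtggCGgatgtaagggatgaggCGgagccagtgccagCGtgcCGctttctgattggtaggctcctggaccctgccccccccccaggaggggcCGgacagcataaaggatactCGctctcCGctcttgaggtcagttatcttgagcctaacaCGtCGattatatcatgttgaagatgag

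The next sequences show a motif that the Atf4 family can bind. The palindrome TGACGTCA, the cyclic AMP response element (CRE), was searched in the same 300 bases and is marked by the capitals. It occurred in 9 of 334 promoters in dense windows (2.69%) and in 453 of 19751 promoters elsewhere (2.29%), so its share in the dense windows was near the background of 2.30% over all promoters given. The promoters that hold it belong to Chpf, Tmem198, Kif5c, Csnk1g2, Eef2, Dapk3, Zfr2, H4c8 and Ptprs. Those of Chpf and Tmem198 overlap on opposite strands and hold the same CRE copies, so they are not separate places. Kif5c, a kinesin heavy chain of neurons, has the CRE beginning at position -26, counted from its start base as 0 (chr2:49619036-49619335, plus strand) under an interval of 1238 bp. Ptprs, a receptor tyrosine phosphatase of axons and synapses, has it beginning at position 5 (chr17:56476431-56476730, minus strand) under an interval of 1168 bp. A match describes the letters only and is not a measured binding site.
Kif5c: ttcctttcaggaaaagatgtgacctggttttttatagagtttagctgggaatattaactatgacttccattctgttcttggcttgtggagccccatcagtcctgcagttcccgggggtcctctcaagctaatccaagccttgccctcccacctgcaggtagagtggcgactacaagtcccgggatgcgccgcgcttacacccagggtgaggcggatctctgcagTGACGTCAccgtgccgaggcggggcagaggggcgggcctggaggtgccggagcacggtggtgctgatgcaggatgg
Ptprs: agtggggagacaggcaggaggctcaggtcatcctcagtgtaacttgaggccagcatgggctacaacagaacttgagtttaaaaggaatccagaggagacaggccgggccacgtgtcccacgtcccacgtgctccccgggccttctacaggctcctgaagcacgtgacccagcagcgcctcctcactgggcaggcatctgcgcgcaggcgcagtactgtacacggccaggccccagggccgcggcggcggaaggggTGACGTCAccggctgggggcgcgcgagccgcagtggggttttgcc

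Short RNAs form another group of named features in dense windows. Of 59 microRNA genes given by RefSeq in dense windows, 22 (37.3%) had an interval over their hairpin, against 180 of 921 (19.5%) elsewhere. Windows chosen for many intervals favour such overlap for any feature, since 17.5% of their bases were covered, against 4.25% elsewhere. For 4 genes in dense windows and 57 elsewhere, where the table used gives no hairpin, the span of the mature sequences was taken in its place. The 22 hairpins lie in 14 windows, and some overlap each other or share an interval. They give 43 mature sequences with 43 distinct seeds, so none of them shared a seed. The mature sequences below, chosen after their values were seen for their known place in neurons, have bases 2 to 8, the seed that pairs with targets, in capitals. The hairpin of miR-9-5p (Mir9-3), abundant in neural progenitors and neurons, lies in a window of 36 intervals on chromosome 7 under an interval of 784 bp. That of miR-128-3p (Mir128-2), a microRNA enriched in neurons, lies within Arpp21 in a window of 33 intervals under an interval of 1516 bp. For miR-153-3p (Mir153), within the gene of the secretory granule protein Ptprn2, the interval was 664 bp wide. The interval was 794 bp wide for miR-129-5p (Mir129-2) and 921 bp wide for miR-92b-3p (Mir92b). The last 3 come from the imprinted Meg3 and Rtl1 cluster, where the intervals were 887 bp wide over Mir431, 620 bp over Mir127 and 597 bp over Mir136.
miR-9-5p: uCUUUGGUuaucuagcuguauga
miR-128-3p: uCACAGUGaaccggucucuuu
miR-153-3p: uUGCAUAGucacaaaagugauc
miR-129-5p: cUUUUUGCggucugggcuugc
miR-92b-3p: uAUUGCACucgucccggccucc
miR-431-5p: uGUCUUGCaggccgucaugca
miR-127-3p: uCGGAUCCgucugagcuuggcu
miR-136-5p: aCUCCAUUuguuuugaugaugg

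Most dense windows held only slightly more intervals than the rule asked for. They had a median of 32 intervals (quartiles 31 and 35, range 30 to 51), while the other 24381 windows had a median of 7 (quartiles 3 and 12, range 0 to 29), and 2280 of those had none. At the threshold, 55 windows held exactly 30 intervals, 45 held 31 and 25 held 32, while 59 held 29, 70 held 28 and 106 held 27. The first by position with 29 intervals, just outside, on chromosome 1 at 92200001 to 92300000 with no protein-coding gene, had 15101 bp covered. The counts thus run through the threshold without a gap, and 13 windows reached 40 or more.

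**Figure D1:**
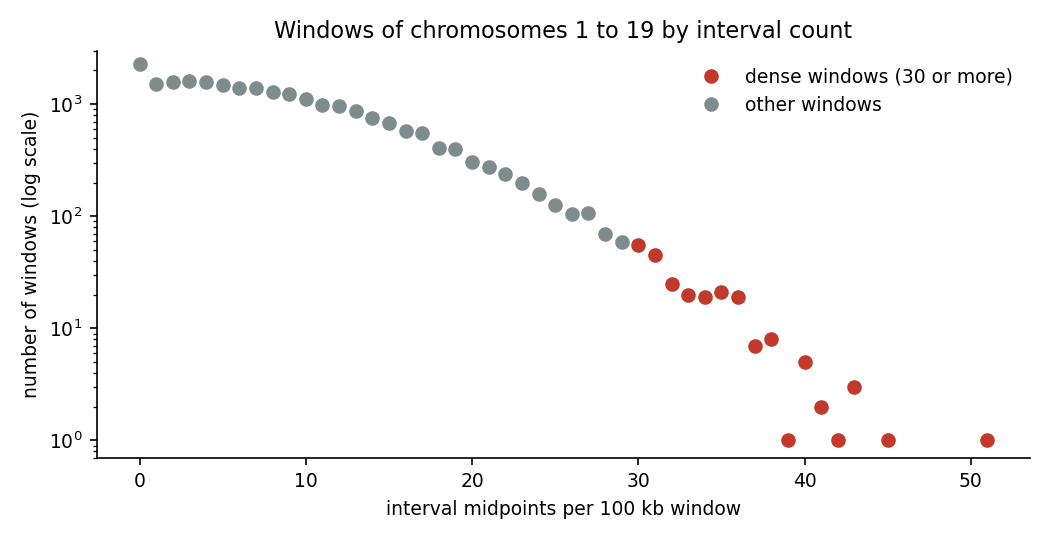
The number of 100 kb windows (log scale) is plotted against the interval midpoints each holds, with dense windows in red and all other windows of chromosomes 1 to 19 in grey. The grey points run into the red ones without a break at 30, and a single window reached 51.

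Intervals covered 4.08 Mb of the dense windows, or 17.5% of their bases, and 103.6 Mb (4.25%) of the other windows. Single dense windows had 10.1% to 25.6% of their bases covered, with a median of 17.3%, so even the most covered were mostly outside intervals. The intervals themselves were of ordinary width. Their median was 433 bp (quartiles 306 and 663) in dense windows and 425 bp (quartiles 308 and 624) elsewhere, and 8.95% and 8.13% were at least 1000 bp wide. The widest interval had 2757 bp in dense windows and 4410 bp elsewhere. Neighbours within a window were a median of 1449 bp apart in dense windows and 4359 bp elsewhere, and 31% of these gaps in dense windows were under 500 bp, against 17.4% elsewhere. The shares of intervals below the score ceiling of 1000 in the deposited list were also alike, with 119 (1.54%) in dense windows and 3070 (1.53%) elsewhere.

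Most intervals in dense windows lay inside the bodies of protein-coding genes, away from their ends. Of the member intervals, 5365 (69.5%) had their midpoint inside a protein-coding gene and over 1000 bp from the ends of such genes, against 47.3% of intervals elsewhere. At a gene end, within 1000 bp, were 586 (7.59%), against 9.49% elsewhere. These are shares of intervals. By number, the 233 dense windows held 586 such intervals and the other 24381 windows held 19003, so each dense window held more of them on average. Another kind of gene alone held 546 (7.07%), against 8.11% elsewhere, and 1224 (15.9%) lay between genes, against 35.1% elsewhere. Protein-coding genes filled 72.6% of the bases of dense windows and 39.6% of those of other windows, so the share of intervals inside genes moved with the share of sequence inside genes. The intervals at gene ends were wider than the rest in both sets, but their median was 593 bp in dense windows and 816 bp elsewhere. Inside coding genes the medians were 431 bp in dense windows and 416 bp elsewhere. Windows, genes and neighbouring intervals are not replicates, so none of these differences has a test.

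**Figure D2:**
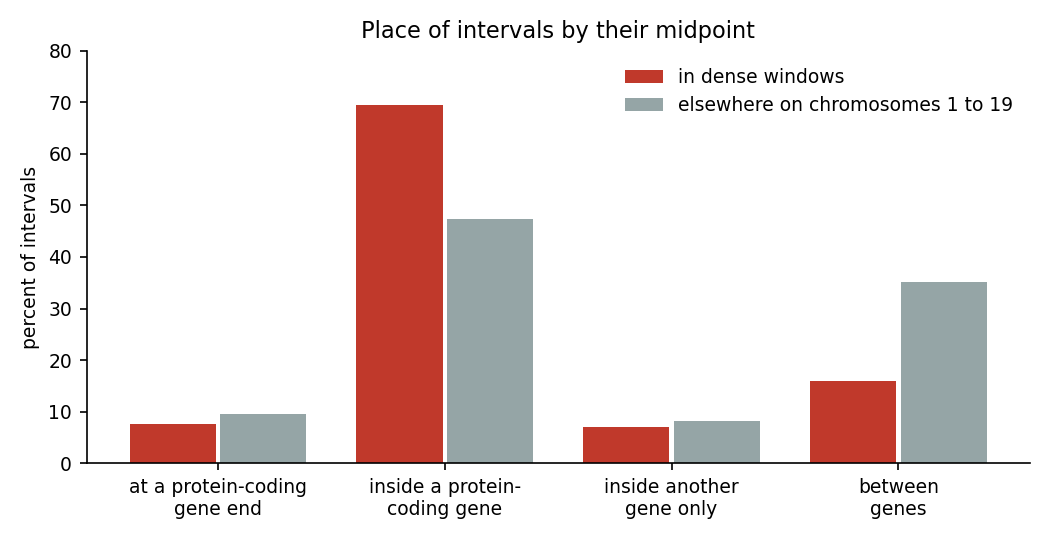
Bars give the percent of intervals whose midpoint lies in each place, for the 7721 intervals in dense windows (red) and the 200284 elsewhere on chromosomes 1 to 19 (grey). Inside a protein-coding gene were 69.5% in dense windows and 47.3% elsewhere, and between genes were 15.9% and 35.1%.

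A dense window typically held 1 long gene. The median number of protein-coding genes that overlap a window was 1 in dense windows and 1 elsewhere, but 11 of the 233 dense windows (4.72%) had none, against 36.8% of other windows. Exactly 1 protein-coding gene overlapped 116 dense windows (49.8%) and 34.6% of the others. A single gene filled 90% or more of 70 dense windows (30.04%) and of 16.4% of the others. At the other end, 5 or more protein-coding genes overlapped 27 dense windows (11.6%) and 4.08% of the others. In all, 456 of 20558 protein-coding genes (2.22%) overlapped a dense window. Their median length was 23667.5 bp, against 17437.5 bp for the other genes, and 105 of them (23.0%) were over 100 kb, against 11.0% of the others, although a longer gene meets more windows by its length alone.

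Windows filled by 1 gene and windows with many genes are set side by side here, with the caution that their shares at gene ends follow in part from how they were defined. In the 70 windows filled by 1 gene, 0.817% of 2327 intervals lay at a gene end and 6.75% were at least 1000 bp wide. In the 27 windows with 5 or more genes, 32.0% of 879 intervals lay at a gene end and 14.6% were at least 1000 bp wide. Median widths were close, at 433 bp in windows filled by 1 gene and 429 bp in windows with 5 or more genes. The remaining 125 windows that hold a protein-coding gene lay between, with 6.91% of 4139 intervals at a gene end. In the 11 windows without a protein-coding gene, the median width of 376 intervals was 393 bp.

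The window with the most intervals, on chromosome 1 at 93000001 to 93100000, held 51 intervals over 24862 bp, and 46 of them lay in Kif1a. Kif1a (93015455 to 93102039, minus strand) encodes a kinesin motor that carries synaptic vesicle precursors along axons. The interval over its start was 1857 bp wide (93100506 to 93102362) and lay in the next window, so it is not among the 51. The windows on either side held 16 and 15 intervals, so neither was dense. The small neighbour Aqp12, an aquaporin gene, had an interval of 738 bp near an end.

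On chromosome 17 at 56400001 to 56500000, 43 intervals covered 25635 bp, the most bases of any dense window. Of these, 28 lay in Ptprs (56412426 to 56476561), whose promoter is printed above, and 2 in Kdm4b, a gene for a histone demethylase that reaches into the window. Another window of chromosome 17, at 24500001 to 24600000, was a gene-rich one with 42 intervals over 22567 bp. It holds part of Caskin1, a scaffold gene of synapses with an interval of 2512 bp at its other end, outside the window, then Traf7, a ubiquitin ligase gene, and Rab26, a gene of a small GTPase of vesicles. Pkd1 held 27 of its intervals. Tsc2, whose product restrains the growth kinase complex mTORC1, shared with Pkd1 an interval of 1476 bp at their facing ends.

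Imprinted and noncoding genes filled other windows among the 10 with most intervals. On chromosome 12 at 109500001 to 109600000, 43 intervals covered 21972 bp around Meg3, a maternally expressed long noncoding RNA gene, and Rtl1, an imprinted gene derived from a retrotransposon. All 23 intervals inside Rtl1 as RefSeq bounds it lay in dense windows, and the next window held 34. This window and the next hold 21 microRNA genes, 8 of them with an interval over their hairpin. On chromosome 6 at 31100001 to 31200000, 43 intervals covered 20965 bp in a window without a protein-coding gene, occupied by the long noncoding RNA genes Lncpint, known to be induced by p53, and Gm13835.

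The remaining windows among the 10 were held by single genes or small groups. The last places were shared, since 5 windows held 40 intervals each, and the pair with most covered bases was taken. The other 3 were those of Nfix, Igsf21 and Rbfox3. Slit1, a secreted axon guidance cue, held all 41 intervals of its window on chromosome 19 at 41600001 to 41700000, which covered 21141 bp with a median gap of 1327.5 bp. Also on chromosome 19, at 7100001 to 7200000, 40 intervals covered 24611 bp over Macrod1, an ADP-ribose hydrolase gene, Flrt1, a cell adhesion gene that lies within it, and Otub1, a deubiquitinase gene. The widest interval at a gene end was 1870 bp for Flrt1 and, at ends outside the window, 1358 bp for Otub1 and 1314 bp for Macrod1. The window on chromosome 18 at 25600001 to 25700000 held 40 intervals over 22396 bp, within Celf4, an RNA-binding protein gene of neurons with 99 intervals along its body. On chromosome 2 at 77900001 to 78000000, 41 intervals covered 23517 bp, of which 25 lay in Cwc22, a splicing factor gene. Cwc22 is known to lie in a segment whose copy number varies among mice, and the part of copy number in this count was not tested.

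**Figure D3:**
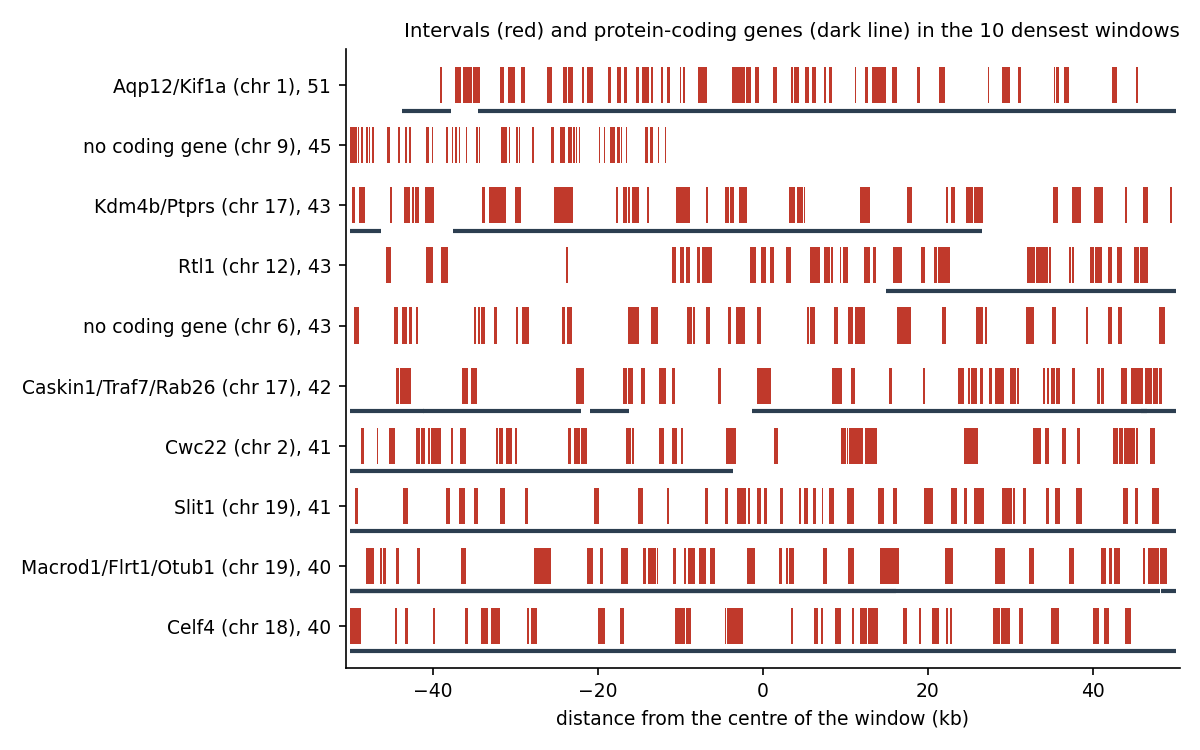
Each row is 1 of the 10 windows with most intervals, with its intervals as red blocks, its protein-coding genes as a dark line beneath, and distance from the window's centre in kb along the bottom. The intervals spread over most of each window except on chromosome 9, where all 45 stop before the centre.

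Dense windows were also found side by side. They formed 192 runs, of which 156 were single windows, 32 were pairs, 3 were runs of 3 and 1 was a run of 4, so 77 of the 233 windows (33.0%) had a dense neighbour. Windows beside them that were not dense themselves had a median of 19 intervals, against 7 over all windows that are not dense. The run of 4, on chromosome 11 at 119700001 to 120100000, held 31, 35, 30 and 38 intervals in order of position. It runs over Rptor, a subunit of mTORC1, Chmp6, a gene of membrane sorting, Baiap2, a synaptic scaffold gene, Aatk, a kinase gene, Cep131, Tepsin and Ndufaf8, an assembly factor of respiratory complex I. On chromosome 9 at 45400001 to 45700000 the counts were 36, 35 and 32, nearly all of the stretch being Dscaml1, a cell adhesion gene of neurons. On chromosome 12 at 112400001 to 112700000 they were 35, 31 and 31, over a group that includes Inf2, a formin linked to mitochondrial fission, and Akt1, a growth and survival kinase. The remaining run of 3, on chromosome 5 at 112400001 to 112700000 over Sez6l and Myo18b, had 30 in each window.

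Long genes gave the largest totals per gene, and such totals rise with gene length. Dscaml1 held 90 member intervals and Sorcs2, a receptor of neurotrophin precursors, held 87, and these were the only 2 genes that overlap 3 dense windows. Behind them came Celf4 with 76, Ntrk2, the receptor of the growth factor BDNF, with 73, and Msi2, an RNA-binding protein gene, with 72. Rbfox3, which encodes the neuronal marker NeuN, had 71 of its 137 intervals in dense windows. In all, 33 protein-coding genes overlapped 2 or more dense windows. These genes were named after their values were seen.

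Chromosomes contributed unequally. Chromosome 11 had 26 dense windows among 1220 (2.13%), and chromosome 5 had 24 (1.58%). Chromosome 1, the longest, had 5 of 1953 (0.256%), and chromosome 16 had 1 of 982 (0.102%). The window with most intervals of all thus lies on a chromosome with few dense windows.

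Among lists of genes with a shared role, those of neuronal transcription factors and inhibitory neurons had the largest shares in dense windows. Over all 20558 protein-coding genes, 417 (2.03%) had an end in a dense window, and each list is read against that share. Of 28 cortical neuron transcription factor genes, 5 (17.9%) had an end in one. Nfix, a nuclear factor of neural differentiation, lay in a window of 40 intervals and held 37 member intervals, and Bcl11b, a factor of deep-layer projection neurons, lay in a window of 36 and held 33. Bcl11a, Cux2, a factor of upper cortical layers, and Neurod2 each had an end in a window of 31. They held 15, 9 and 3 member intervals in that order.

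Of 20 inhibitory neuron genes, 4 (20%) had an end in a dense window, although Dlx5 and Dlx6, neighbouring homeobox genes of interneuron development, share 1 window of 35. Dlx5 and Dlx6 held 1 member interval each. Slc32a1, the vesicular GABA transporter gene, lay in a window of 31 and held 6 member intervals. Gad1, which makes GABA, lay in a window of 30 and held 22 of its intervals. Of 21 activity-induced genes, 2 (9.52%) had an end in dense windows, Npas4 at 37 and Fosb at 32, both transcription factor genes switched on by neuronal firing. Npas4 held 1 member interval and Fosb held 2, so most intervals of these windows lay outside both genes. Of 33 neuron-wide and synaptic genes, 1 (3.03%), the synaptic vesicle protein gene Vamp2, had an end in a dense window, of 30 intervals, and that share was near the background. Vamp2 held 1 member interval. The synaptic scaffold gene Shank2 and Rbfox3 overlapped dense windows without an end in them.

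Some stress genes, the subject of the study, had an end in a dense window. Of 36 ATF4 and integrated stress response genes, 3 (8.33%) did so, against 2.03% of all protein-coding genes. Shmt2, a mitochondrial enzyme of serine and folate metabolism, lay in a window of 36 intervals with an interval of 1085 bp at an end, and held 1 member interval. Ddit3 and Mars1, the methionyl-tRNA synthetase gene beside it, share a window of 31, so these 3 genes rest on 2 windows. By midpoint, Ddit3 held 0 member intervals and Mars1 held 2. None of 24 genes of mitochondrial fusion, fission and cristae and none of 42 of oxidative phosphorylation had an end in a dense window. With lists of this size, a count of 0 is near the background share of 2.03%. Atf4 itself lies on chromosome 15 in a window at 80200001 to 80300000 with 22 intervals over 12166 bp. Opa1 spans a pair of windows on chromosome 16 with 6 intervals over 2529 bp and 9 over 4138 bp. Neither gene is in a dense window.

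None of the genes on the lists of other cell types had an end in a dense window. The counts were 0 of 12 astrocyte genes, 0 of 12 oligodendrocyte lineage genes, 0 of 14 microglia genes and 0 of 16 hepatocyte genes, the last a list from outside the tissue. With lists of this size the background share of 2.03% amounts to less than 1 gene each, so a count of 0 is near the background too. All counts describe where genes lie, and none measures expression.

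**Figure D4:**
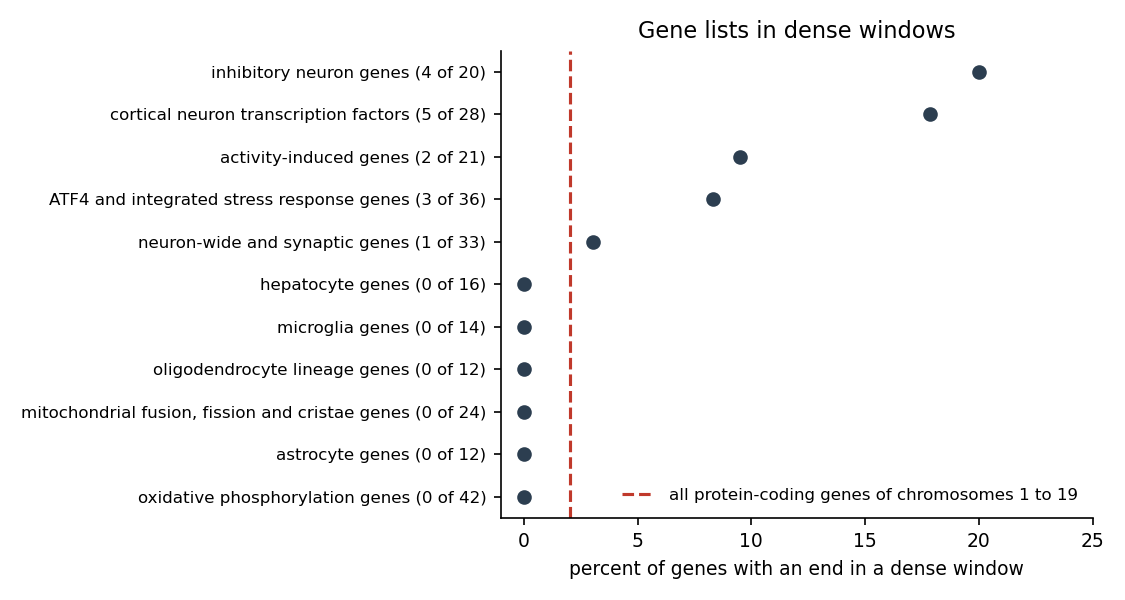
Points give the percent of each list's genes on chromosomes 1 to 19 with an end in a dense window, with the number of genes beside the list's name, and the dashed line is the 2.03% over all protein-coding genes. Inhibitory neuron genes and cortical neuron transcription factors lie farthest right of the line at 20% and 17.9%, and the lists with 0 genes lie left of it.

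Promoters in dense windows were more often covered and richer in G and C. An interval overlapped 277 of 334 promoters in dense windows (82.9%) and 12623 of 19751 elsewhere (63.9%), with a median width of 1037 bp in dense windows and 1160 bp elsewhere. The rule itself favours such overlap, since intervals covered 17.5% of the bases of dense windows and 4.25% of those elsewhere. The median GC content of the 300 bases was 61.0% in dense windows and 56.7% elsewhere, and the median number of CG was 17 in dense windows and 13 elsewhere. The GC box GGGCGG, searched on both strands like all motifs, was in 60.2% of promoters in dense windows, in 46.8% elsewhere and in 47.0% of all. The shares ran the other way for the TATA box TATAAA, at 7.78% in dense windows, 12.8% elsewhere and 12.7% of all, and for CCAAT, at 33.5%, 38.2% and 38.1%. The AP-1 motif TGACTCA was in 2.69% in dense windows, 4.73% elsewhere and 4.70% of all. The neuronal E-box CAGATG was in 17.1% in dense windows, 14.5% elsewhere and 14.6% of all. The composite site TGATGCAAT, bound by C/EBP and ATF proteins together, was in 0 of 334 promoters in dense windows, in 0.182% elsewhere and in 0.179% of all. Some genes have several promoters in the table, and overlapping ones share bases.

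The dense windows without a protein-coding gene number 11. By interval count, those after the windows of chromosome 9 and Lncpint were on chromosome 2 at 166400001 to 166500000 with 35 intervals, on chromosome 15 at 74100001 to 74200000 with 34 and on chromosome 18 at 38000001 to 38100000 with 33. RefSeq lists only noncoding or predicted genes in these 3, among them 5031425F14Rik. A window on chromosome 2 at 94200001 to 94300000, chosen after its values were seen, holds Mir129-2 and Mir670 in a stretch with 32 intervals.

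A pair of adjacent windows on chromosome 13 overlaps a histone gene cluster. The window at 23500001 to 23600000 held 32 intervals and overlaps 15 protein-coding genes, the most of any dense window, all of them histone genes such as H4c8 and H2bc6. Of its intervals, 17 lay at a gene end, and 15 other genes listed there are mostly transfer RNA genes. Next to it, at 23400001 to 23500000, 34 intervals lay around Abt1, Btn1a1, Btn2a2 and a further 26 genes that are mostly transfer RNA genes. Its median interval width was 362 bp and its median gap 480 bp. Histone and transfer RNA genes come in near-identical copies, so the placement of short reads among copies is uncertain, and its part in these counts was not tested.

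Of the 233 dense windows, 43 met at least 1 of 5 criteria for a suspected repeat and 190 met none. No dense window overlapped a ribosomal RNA gene. No protein-coding gene was present in 11, 5 or more genes with a shared name stem were present in 3, and predicted gene models or pseudogenes made up 50% or more of the genes, and at least 3, in 30. At least 10% of intervals lay below the score ceiling in 2. These criteria mark windows for a closer look and are no proof of a repeat: the windows of Ptprs, Meg3 and Lncpint each met 1. Nor does meeting none show that copies are absent. The window of histone genes described above was among the 190, because its symbols fall into several name stems. The suspected window with most intervals, at the start of chromosome 9, had 45 and is described next. The others among the 10 such windows with most intervals were those of Myo18a and Pipox (35), of the 5031425F14Rik stretch (35), of A530016L24Rik at the start of the chromosome 12 run (35), of Thra and Nr1d1 (34), of Unc5a (34), and one on chromosome 18 at 35800001 to 35900000 (34).

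One window departed from all other dense windows in its intervals. On chromosome 9 at 3000001 to 3100000, 45 intervals began at base 2999969 and lay within 38305 bp, after which the next window held 1 interval and the next 5 windows held 11 in all. Their median width was 190 bp, while the medians of the other dense windows ran from 326 to 620.5 bp. Under 300 bp were 37 of the 45 (82.2%), against 23.4% of intervals in the other dense windows and 23.0% outside dense windows. Only 10105 bp of the window was covered, while the other dense windows had 12367 to 25635 bp. Stretches of the same length held at most 30 intervals elsewhere on these chromosomes, in the Kif1a window. Mir101c is the only gene listed in it. Mouse chromosomes are known to begin with a long unsequenced stretch followed by satellite repeats near the centromere. The repeat content of the window was not tested, since neither a genome sequence nor a repeat annotation was used here.

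**Figure D5:**
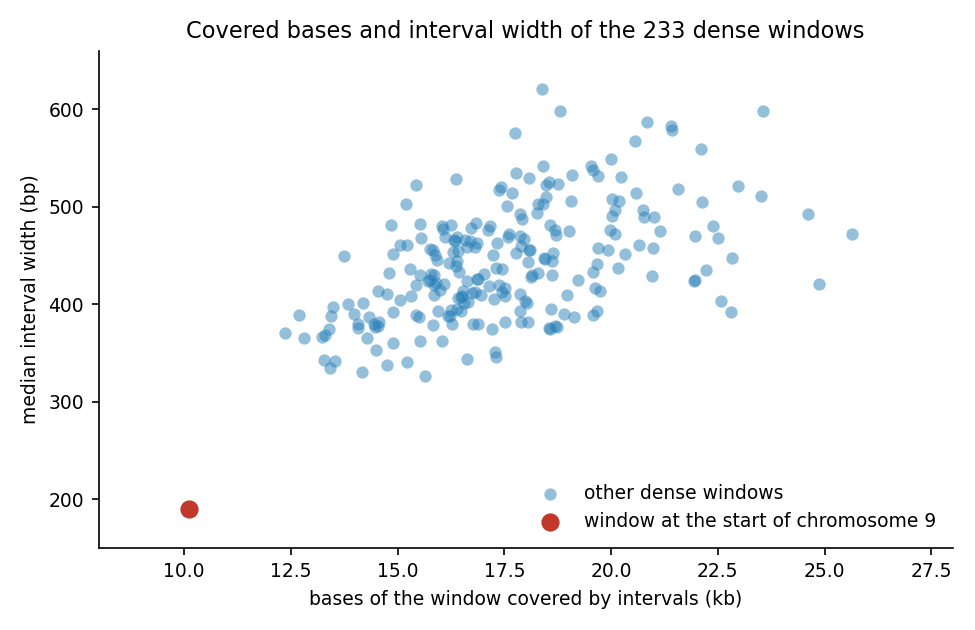
Each point is 1 of the 233 dense windows, placed by the bases that intervals cover (kb) and by their median interval width (bp). The window at the start of chromosome 9 (red) lies apart at 190 bp and 10105 bp covered, below the lowest of the others on both axes.

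The counts of dense windows fell when intervals that nearly touch were joined. The windows were chosen by their count before joining, and no joined counts of the other windows are set beside them. When intervals under 200 bp apart were joined, the dense windows held 19 to 42 joined intervals with a median of 26, and 30 of the 233 still reached 30. The Kif1a window kept 42, the Slit1 window 37 and a window within Msi2 35, while the window at the start of chromosome 9 kept 29. Counting only intervals of at least 500 bp, dense windows held 3 to 22 with a median of 13. The lowest value, 3, was that of the chromosome 9 window, and the Kif1a window had 18.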

How the data were processed

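ATAC-seq reads of 50 bp came from 18 samples in 4 groups, per the labels. The authors deposited 1 consensus list on mm10 of intervals with coordinates, a name and a score. The submitters' processing notes name MACS2, deepTools and MultiQC, without versions, and the deposited names carry that of MSPC, which combines peak calls. Which samples entered the list, the calling thresholds, any excluded regions and the depth are unknown, so no precision can be stated. The score deposited by the authors is at its ceiling of 1000 for nearly all intervals and ranked nothing.

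Windows, widths, gaps and coverage were computed in Python 3.11.15 with pandas 2.3.3, numpy 2.4.6 and scipy 1.17.1, figures were drawn with matplotlib 3.10.9, and the counting was tested on simulated data. Genes, promoters and microRNAs came from RefSeq tables of GRCm38.p6, 363 genes on scaffolds or unplaced were left out, and promoter values cover 334 and 19751 promoters, with none on chromosome 18. A midpoint placed each interval. Tests between groups were planned but not run, since the list holds no values per sample.

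Named were the 10 windows with most intervals, ties broken by covered bases, with up to 6 genes each, the 3 longest runs, up to 10 suspected repeat windows, up to 5 windows without a protein-coding gene, the Atf4 and Opa1 windows, and up to 4 genes of each of 11 lists in dense windows. Windows, members and lists were chosen with earlier results of these data known, and genes outside that rule after their values were seen. Alternatives were other thresholds of 25 and 40, windows shifted by 50 kb, placement by interval start, a minimum width of 500 bp, joining of intervals under 200 bp apart, suspected repeat windows left out, gene end distances of 500 and 2500 bp, and genes placed by midpoint. Added after seeing the data were leaving out the chromosome 9 start window, and a width minimum of 500 bp with 15 or more intervals per window.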

Additional observations from a re-analysis of the deposited data

Results flagged for a closer look

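The tiling covered chromosomes 1 to 19, and the remaining chromosomes hold intervals outside it. The window of chromosome X with most intervals held 24, at 75700001 to 75800000 over part of Pls3, an actin-bundling protein gene, among 3622 intervals of that chromosome. That of chromosome Y held 15 of 47, at 90700001 to 90800000, where the gene table lists Gm52481. The mitochondrial chromosome held 8 intervals, all in its single window. None of these windows reached 30, and they were singled out only because they lie outside the chromosomes described.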

How the results depend on the processing

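Of 65 values under 12 other settings, 28 stayed close to the reported value and 37 moved. For counts of windows and intervals, close means within 1.5 times the reported count, and for other values within its 95% interval. Those 95% intervals treat single bases, intervals, windows or genes as independent, which they are not. For coverage the interval was only 17.51% to 17.54%, so very small changes count as moved, and the tally is a rough guide. The median of 1 protein-coding gene per window did not change under the settings that give one. The values are given below in the order dense windows, intervals in them, bases covered, median width, intervals at a gene end, windows beside another dense one, and protein-coding genes with an end in one. At 25 or more midpoints there were 698 windows, 20108 intervals, 15.5% covered, 8.38% at a gene end, 45.6% adjacent and 6.12% of genes. At 40 or more there were 13, 549, 21.5%, 415 bp, 3.28%, 0% and 0.0827%. Joining intervals under 200 bp apart gave 30, 956, 19.6%, 508 bp, 3.35%, 6.67% and 0.141%. With windows shifted by 50 kb, 17.7% was covered, 26.0% were adjacent and 1.66% of genes had an end in one, and 156 of the 233 windows overlapped 1 of the 208 shifted dense windows. Intervals of at least 500 bp gave 0 windows and 0 intervals at the threshold of 30, so no other value. At 15 or more of them per window there were 166 windows, 87 of them shared with the 233, and 2709 intervals, 13.4% covered, 734 bp, 10.3%, 17.5% and 1.65%. Coverage was 17.6% by interval start, 17.7% without suspected repeat windows (1.76% of genes) and 17.6% without the chromosome 9 start window. The share at a gene end was 4.65% within 500 bp and 13.8% within 2500 bp.

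The counts, and which windows are dense, thus depend on the threshold, the grid and the splitting of close intervals. Depth, the number of cultures behind an interval and mappability could not be examined. No paired analysis was possible because the list holds no values per sample.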
